A study of Mus musculus with 7 samples.

Results

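The change in histone H3 lysine 18 lactylation (H3K18La) between postnatal day 4 (P4) and postnatal day 10 (P10) was measured by CUT&Tag in the retina of C57Bl/6J mice. It is described here from the 4 libraries of these ages, 2 per age, out of the 7 in the series. The other 3 libraries are from postnatal day 28 (P28) and entered the tests only by adding to the estimate of the spread between replicates. The 4 libraries were taken by the age in the labels, a rule that uses no measured value. Both groups were whole retina of the same strain with no treatment named in the labels, dissociated with papain before the assay, and all 4 libraries carry the batch label 1. The study's methods call the replicates biological, but neither they nor the labels say whether replicate libraries came from separate animals. The p-values of the fits over 7 libraries therefore measure a spread within P4, P10 and P28 together, which may be technical. The P28 libraries were deeper, with a median of 6, 33 and 13 reads per peak against 1 or 2 in the 4 libraries. These p-values thus do not measure the spread of the P4 and P10 libraries alone.

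H3K18La is an acylation of the histone tail whose acyl group derives from lactate, the end product of glycolysis, and it has been linked to active genes. In CUT&Tag, an antibody bound to the mark directs an enzyme that cuts the DNA around it, so reads pile up where the mark lies. The mouse retina at P4 still holds dividing progenitors and newborn rods, whereas by P10 rods are the most numerous cells, outer segments are growing and ribbon synapses form between photoreceptors and bipolar cells. Photoreceptors convert much of their glucose to lactate even in the presence of oxygen. In whole tissue, more cells of a type and more mark per cell cannot be told apart, and this holds for every value that follows.

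The 4 libraries were shallow, and the age groups differed in how much of the signal lay in peaks. The 108253 peaks, merged over the 3 ages, had a median width of 757 bases and covered 96.3 Mb. Reads in peaks, recovered from the deposited RPKM (reads per kilobase of peak, scaled to library size), numbered 358971 and 295383 at P4 and 199970 and 660740 at P10. They made up 16.3 and 17.6% of the effective library size at P4 and 36.1 and 52.1% at P10, a difference of 27.1 percentage points (17.0% ± 0.930 against 44.1% ± 11.3, SD, n = 2 each). With 2 libraries against 2, the exact permutation test (two-sided) cannot go below the p = 0.333 that it gave. The effective size is the mapped total multiplied by the normalization factor of the authors, so these shares are per effective size. A peak held a median of 1 or 2 reads per library, and 45.8% of peaks had no read in P10 replicate 1, against 13.2 to 22.1% in the other 3 libraries. The precision is therefore set by read number, and 3 reads at a peak of median width correspond to 1.80 and 2.36 RPKM at P4 and 7.15 and 3.12 RPKM at P10.

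H3K18La was called higher at P10 at more peaks than it was called lower on the deposited scale, and the lower calls rested on few reads. Of the 108253 peaks, 12320 were called higher at P10 (11.4%) and 7944 lower (7.34%), by limma on log2(RPKM + 1) with a Benjamini-Hochberg adjusted p under 0.01. The peaks called higher held a median of 27 reads over the 4 libraries, 5 at P4 and 21 at P10. The peaks called lower held a median of 4 reads at P4, and 99.6% of them had no read at P10. A model that weights each value by its read number (voom, on the 4 libraries) called 15962 peaks higher and 123 lower. It called 11021 of the 12320 higher peaks (89.5%) and 97 of the 7944 lower ones (1.22%) in the same direction. Lower calls are therefore given below with the reads behind them.

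These counts depended on single libraries and on the scale. Without P4 replicate 1 there were 2799 higher and 2681 lower peaks, without P4 replicate 2 there were 3188 and 2275, without P10 replicate 1 there were 17530 and 3462, and without P10 replicate 2 there were 12004 and 5927. With the 4 libraries alone no peak passed, although 36724 had an unadjusted p under 0.05 and the smallest adjusted p was 0.062. The deposited scale is set by background windows, and the median change over all peaks was 0.23 on it and -0.53 after each library was scaled to its reads in peaks. On that second scale 4706 peaks were higher and 17156 lower, and 4657 of the 12320 higher calls (37.8%) were among them. Changes are given below on the deposited scale, with the value scaled to reads in peaks beside those that matter.

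**Figure D1:**
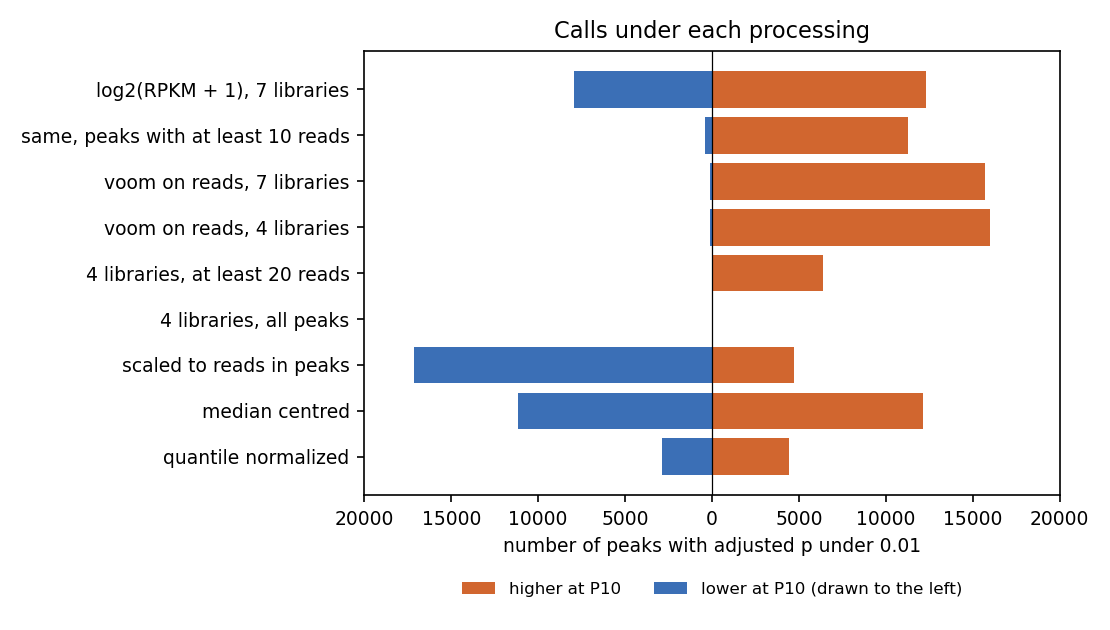
Bars show the number of peaks with an adjusted p under 0.01, drawn to the right where higher at P10 and to the left where lower, for the ways of processing named on the vertical axis, which do not include leaving out a library. Among these, higher calls ranged from 0 with the 4 libraries alone to 15962 with voom on the 4 libraries, and lower calls from 0 to 17156 when libraries were scaled to their reads in peaks.

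By position, gene bodies and wide peaks took more of the peak reads at P10, and distal intergenic peaks took less. Introns held 36.8 and 37.2% of the reads in peaks at P4 and 39.1 and 40.3% at P10. Exons held 5.54 and 5.72% at P4 and 6.25 and 6.41% at P10, and 3' UTRs held 2.33 and 2.40% and then 3.03 and 2.98%. Distal intergenic peaks held 30.6 and 30.6% at P4 and 25.5 and 26.9% at P10. None of these 4 classes overlapped between the ages (exact p = 0.333 for each, the smallest possible). Promoter peaks, from 1000 bases before to 500 after a start site, held 24.0 and 23.4% at P4 and 25.2 and 22.7% at P10, and there the ages overlapped (exact p = 1). Promoter peaks were called CpG-rich where at least 50% of their bases were G or C and CpG was at least 0.6 times as frequent as their base composition predicts. These CpG-rich ones held 13.2 and 12.6% of the reads at P4 and 12.1 and 10.4% at P10, and the others 10.8 and 10.8% and then 13.1 and 12.3%. Peaks of 1500 bases or more held 28.8 and 28.4% of the reads at P4 and 41.8 and 41.6% at P10. The peaks were called on these same libraries and those of P28, so the widths are not independent of the signal.

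**Figure D2:**
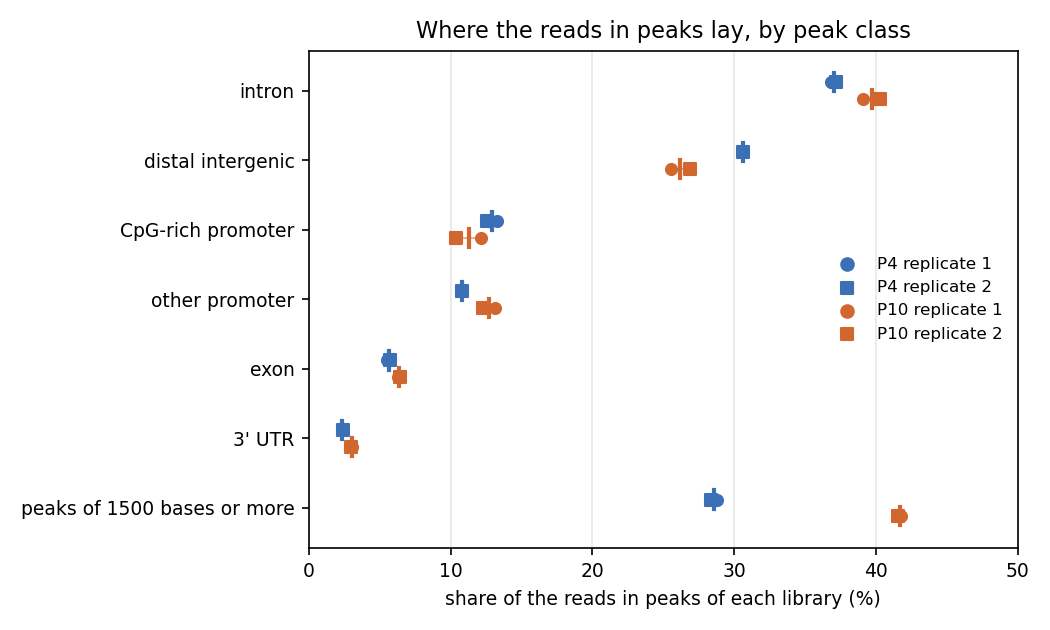
Each point is 1 library and gives the percentage of its reads in peaks that lay in the class named on the vertical axis, with P4 in blue and P10 in orange, circles for replicate 1, squares for replicate 2 and a tick at the mean of each age. Peaks of 1500 bases or more moved farthest, from 28.8 and 28.4% to 41.8 and 41.6%.

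Counted as peaks rather than reads, 2197 of the 17144 promoter peaks were called higher and 319 lower. Without P4 replicate 1 these counts were 576 and 82, and without P4 replicate 2 they were 624 and 62. Higher calls made up 12.8% of promoter peaks, 12.2% of intron peaks, 12.6% of exon peaks, 14.1% of 3' UTR peaks and 9.09% of distal peaks, and lower calls 1.86, 5.99, 5.47, 3.67 and 12.4%. CpG-rich promoters were called higher in 910 of 8401 cases (10.8%) and the remaining promoters in 1287 of 8743 (14.7%). One promoter peak, the nearest to the start site, was taken for each of 9956 protein-coding genes: 1121 rose (11.3%) and 88 fell (0.884%), with a median log2 change of 0.54. When scaled to reads in peaks the balance turned, with 231 higher, 495 lower and a median of -0.32. In 4544 of these genes (45.6%) both P10 libraries lay above both P4 libraries, and in 909 (9.13%) both lay below. Those shares are the background for every gene list that follows. Where a list below has 0 falls, voom on the 4 libraries called 0 as well, and at an unadjusted p under 0.05 limma found 0 falls in the rod, photoreceptor factor, cilium, synapse, glycolysis, oxidative phosphorylation, ribosome and microglia lists, 1 each in the bipolar, Mueller glia, cell cycle, axon guidance, chromatin, and lens and astrocyte lists, and 2 each in the amacrine, ganglion cell and progenitor lists.

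Sequences of 4 promoters and 1 other peak are shown because the results turn on them. Unc119 and Nr2e3 are rod genes among the strongest promoters, Crx and Ldha stand for photoreceptor transcription factors and lactate production, and the peak at Gm12802 had the highest P10 level. Promoter windows run from 250 bases before to 50 after the start site as given by RefSeq, and the last is the 300 bases at the centre of the peak, all in build GRCm38 (GRCm38.p6). They lie at chr11:78345334-78345633, plus strand, at chr9:59950030-59950329, minus strand, at chr7:15879906-15880205, minus strand, at chr7:46845554-46845853, plus strand, and at chr4:107128444-107128743, plus strand. Capitals mark the letters TAATCC on either strand, the core bound by the homeodomain factors CRX and OTX2, with 1 match in Unc119, 2 in Crx, 1 in the peak at Gm12802, and 0 in Nr2e3 and Ldha. A match describes the letters and is not a binding site.
Unc119: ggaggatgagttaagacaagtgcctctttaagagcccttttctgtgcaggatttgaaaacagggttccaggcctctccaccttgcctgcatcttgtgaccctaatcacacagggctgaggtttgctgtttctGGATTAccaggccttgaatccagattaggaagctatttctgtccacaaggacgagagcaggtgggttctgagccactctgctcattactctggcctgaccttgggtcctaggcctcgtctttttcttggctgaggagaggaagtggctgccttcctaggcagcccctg
Nr2e3: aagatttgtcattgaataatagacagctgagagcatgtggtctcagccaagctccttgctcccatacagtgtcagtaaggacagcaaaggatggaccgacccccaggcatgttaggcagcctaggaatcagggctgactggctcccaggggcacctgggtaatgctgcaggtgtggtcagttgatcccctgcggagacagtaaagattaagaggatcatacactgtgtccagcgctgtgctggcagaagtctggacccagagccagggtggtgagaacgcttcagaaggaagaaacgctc
Crx: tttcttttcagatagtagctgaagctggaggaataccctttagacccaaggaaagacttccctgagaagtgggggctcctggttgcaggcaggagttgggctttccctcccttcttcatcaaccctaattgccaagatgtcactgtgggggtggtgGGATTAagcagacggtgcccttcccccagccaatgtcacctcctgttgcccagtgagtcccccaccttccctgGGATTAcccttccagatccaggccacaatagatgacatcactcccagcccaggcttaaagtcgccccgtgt
Ldha: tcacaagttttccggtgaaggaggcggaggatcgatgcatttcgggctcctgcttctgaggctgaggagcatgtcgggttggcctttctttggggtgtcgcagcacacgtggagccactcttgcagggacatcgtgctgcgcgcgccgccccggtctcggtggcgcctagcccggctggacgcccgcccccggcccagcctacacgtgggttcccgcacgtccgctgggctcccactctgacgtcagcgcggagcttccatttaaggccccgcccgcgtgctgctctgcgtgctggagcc
Gm12802: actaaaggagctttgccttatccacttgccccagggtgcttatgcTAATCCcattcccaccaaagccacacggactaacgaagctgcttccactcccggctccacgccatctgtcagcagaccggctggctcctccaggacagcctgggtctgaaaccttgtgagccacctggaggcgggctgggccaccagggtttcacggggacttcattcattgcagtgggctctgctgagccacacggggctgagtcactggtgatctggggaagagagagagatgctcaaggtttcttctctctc

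Genes of rod phototransduction and the outer segment had the highest median change of the gene lists examined, which were drawn up with earlier results of these data known. Of 33 listed genes, 29 had a promoter peak, and 20 of these rose while 0 fell (11 and 0 when scaled to reads in peaks). The share that rose, 69.0%, compares with 11.3% of all genes and, since the list had a median of 41 reads, with 28.04% of protein-coding promoter peaks with at least 20 reads. Here and below that second share is a description only, because the filter counts both ages and a peak can pass it through its P10 reads. The median change was 2.10, or 1.07 when scaled to reads in peaks. In 28 of 29 both P10 libraries lay above both P4 libraries. The same held for 45.6% of all genes and for 75.3% of all peaks with at least 20 reads, again a description only. The list held 7.13 and 6.70 at P4 and 22.5 and 15.5 at P10 per 10000 reads in peaks, with no overlap between the ages. Summed over all non-distal peaks of a gene, 23 of 31 rod genes rose, against 20% of 13835 genes. The 4 members without a promoter peak were Cnga1, Sag, Rgs9bp and Rom1.

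Among transducin and phosphodiesterase genes, Gnat1, Gngt1, Pde6g, Pde6a and Pde6b rose. Gnat1, the alpha subunit of rod transducin (chr9:107679099-107681141, GRCm38), held 2 and 4 reads at P4 and 22 and 27 at P10. Its log2 change was 3.11 ± 0.40 (SE; limma, adjusted p = 0.000909). As a ratio of reads per effective library size the rise was 17.4-fold (7.43 to 49.6), where the bracket is an exact 95% interval that covers counting error only. Fitted log2 changes understate low genes because of the pseudocount of 1, so such ratios are given beside them. The gamma subunit Gngt1 held 6 and 5 reads at P4 and 17 and 38 at P10 (log2 change 2.50, adjusted p = 0.00158). Pde6g, the inhibitory subunit of the rod phosphodiesterase, held 11 and 13 reads at P4 and 28 and 55 at P10 (log2 change 2.56, adjusted p = 0.000696). The catalytic subunits showed the same direction with 6 and 5 reads at P4 and 14 and 21 at P10 for Pde6a (2.26) and 13 and 8 reads at P4 and 18 and 43 at P10 for Pde6b (2.16), both called. In each of these 5 genes both P10 libraries exceeded both P4 libraries, as they did at all 12320 peaks called higher, so this adds nothing to the call.

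Some genes that carry or switch off the light response were also higher. Unc119, a chaperone of acylated transducin (chr11:78344743-78347067), held 13 and 8 reads at P4 and 41 and 88 at P10, or 2.54 and 2.05 RPKM at P4 and 31.8 and 29.8 RPKM at P10, with a log2 change of 3.27 ± 0.27 (limma, adjusted p = 0.000381) and a ratio of 13.1-fold (8.20 to 21.8). Grk1, a kinase that ends the light response (chr8:13402949-13405486), held 41 and 33 reads at P4 and 71 and 143 at P10, a change of 2.50 ± 0.25 (adjusted p = 0.000446) that remained positive at 1.25 when scaled to reads in peaks. Grk1 thus had the most P4 reads on the rod list and a smaller ratio, 6.15-fold (4.70 to 8.13), than Unc119. Guca1b, an activator of guanylate cyclase, held 1 and 1 reads at P4 and 4 and 18 at P10 at its promoter (3.27, adjusted p = 0.000559), and 2 and 4 reads at P4 and 25 and 37 at P10 over all its peaks. Slc24a1, the rod sodium-calcium-potassium exchanger, held 1 and 0 reads at P4 and 8 and 26 at P10 (2.95, adjusted p = 0.000782), and Pdc, phosducin, held 1 and 0 reads at P4 and 4 and 7 at P10 (3.23, adjusted p = 0.00175). Both of the last had 1 read at P4 in all, so their ratios are wide, at 72.3-fold (12.1 to 2940) and 23.4-fold (3.4 to 1007).

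Some genes of outer segment structure followed the same direction. Prph2, which shapes the disc rim, held 5 and 8 reads at P4 and 15 and 43 at P10 (2.34 ± 0.34, limma, adjusted p = 0.00144). Rp1l1 held 19 and 18 reads at P4 and 23 and 83 at P10 (2.20), and Abca4, the retinoid flippase of the disc, 12 and 8 reads at P4 and 15 and 44 at P10 (2.10), both called. The 9 rod genes that did not pass included Reep6, a trafficking protein of rods, with 6 and 2 reads at P4 and 2 and 12 at P10 (1.41, adjusted p = 0.0323), and Prom1, a disc morphogenesis protein, with 31 and 14 reads at P4 and 11 and 47 at P10 (1.19, adjusted p = 0.0318). Rdh12, a retinol dehydrogenase, held 0 and 0 reads at P4 and 0 and 3 at P10, which is too few to describe.

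**Figure D3:**
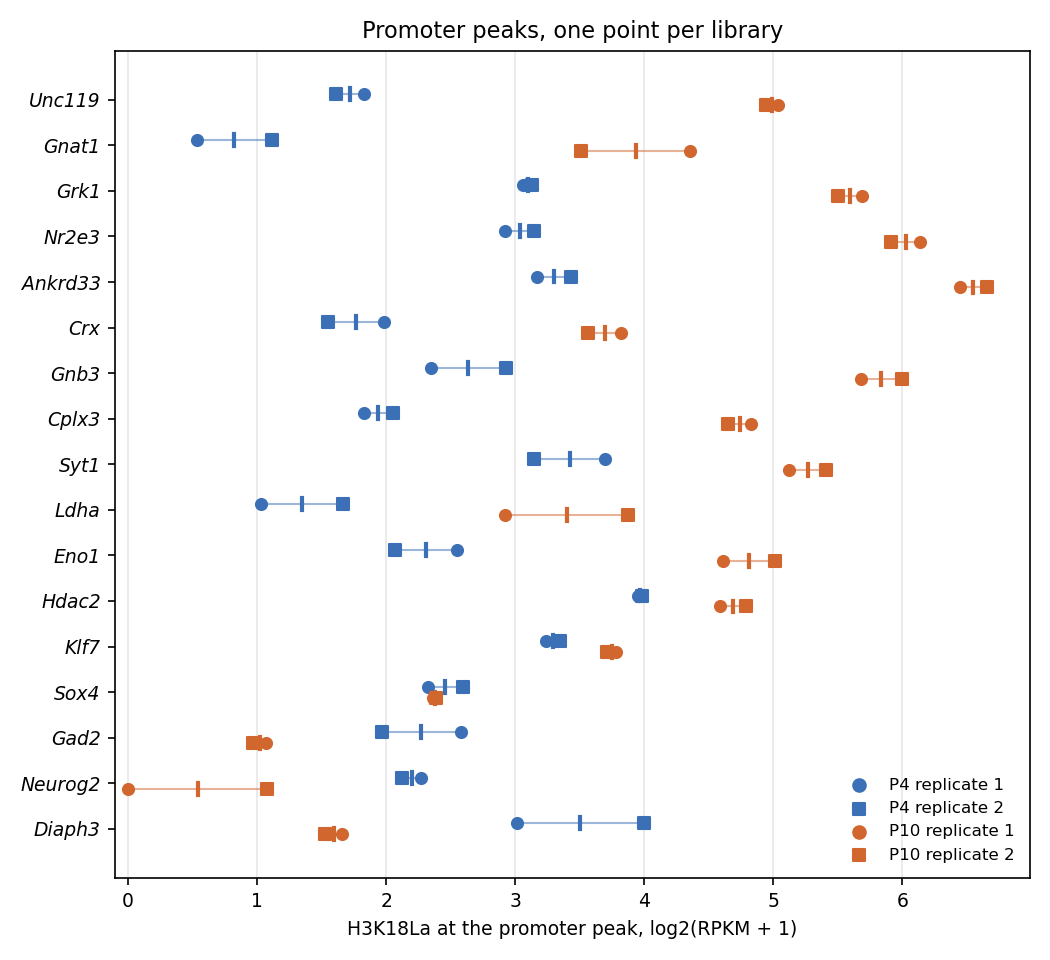
Each point is 1 library and gives the level of H3K18La at the promoter peak of the gene on the vertical axis, as log2(RPKM + 1), with P4 in blue, P10 in orange, circles for replicate 1, squares for replicate 2 and a tick at the mean of each age. Both P10 libraries lie above both P4 libraries from Unc119 down to Klf7, and below them for Gad2, Neurog2 and Diaph3, while Hdac2, Klf7, Sox4, Gad2 and Neurog2 were not called.

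Transcription factors of the photoreceptor lineage had the second-highest median change. Of 19 listed genes 17 had a promoter peak, 11 of which rose (64.7%, with a median of 39 reads) and 0 fell (4 and 1 when scaled to reads in peaks), with a median of 1.85 (0.81 when scaled to reads in peaks). The list held 6.63 and 6.74 at P4 and 19.6 and 13.2 at P10 per 10000 reads in peaks, with no overlap. Nr2e3, the receptor that represses cone genes in rods (chr9:59948856-59953561), was the promoter with the most reads on the list, 68 and 62 reads at P4 and 181 and 354 at P10, or 6.57 and 7.86 RPKM at P4 and 69.4 and 59.3 RPKM at P10. Its log2 change was 2.99 ± 0.26 (limma, adjusted p = 0.000381) and its ratio 8.75-fold (7.21 to 10.7). Ankrd33, a photoreceptor-specific repressor of CRX-driven transcription (chr15:101115239-101117000), reached the highest level, with 7.99 and 9.82 RPKM at P4 and 86.1 and 99.8 RPKM at P10 from 31 and 29 reads at P4 and 84 and 223 at P10 (3.25 ± 0.25, adjusted p = 0.000380). At both promoters the replicates of an age differed far less than the ages.

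The core regulators of rod fate rose from lower levels. Nrl, the leucine zipper factor that fixes rod identity, held 10 and 6 reads at P4 and 17 and 39 at P10 (2.50 ± 0.34, limma, adjusted p = 0.00116, ratio 7.45-fold (4.21 to 13.9)). Crx, the homeodomain factor of all photoreceptors (chr7:15879224-15880458), held 8 and 4 reads at P4 and 9 and 17 at P10, or 2.94 and 1.93 RPKM at P4 and 13.2 and 10.9 RPKM at P10. Its change was 1.93 ± 0.38 (adjusted p = 0.00449), with a ratio of 4.61-fold (2.25 to 10.03), and was 0.86 when scaled to reads in peaks, where it was not called (adjusted p = 0.0951). Crx therefore rose less steeply than Nrl and Nr2e3 in value, although the differences between these genes were not tested. Mef2d, which acts with CRX, held 11 and 7 reads at P4 and 22 and 39 at P10 (2.54, adjusted p = 0.000757), and Neurod1, a factor of photoreceptor maintenance, 17 and 7 reads at P4 and 12 and 29 at P10 (1.78, adjusted p = 0.00274). Otx2 was called on a narrow peak with 1 and 1 reads at P4 and 1 and 8 at P10, so its ratio of 9.57-fold (1.98 to 91.0) is poorly defined.

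Other members of the list moved less or did not pass. Thrb, the thyroid hormone receptor that directs the M-cone opsin, held 36 and 26 reads at P4 and 23 and 55 at P10 and was called at 1.33 (limma, adjusted p = 0.00441), but its sign turned to -0.70 under quantile normalization. Rorb, an early factor of rod development, held 4 and 0 reads at P4 and 3 and 5 at P10 (2.24, adjusted p = 0.0169), and Rxrg, a cone-enriched retinoid receptor, 10 and 8 reads at P4 and 10 and 11 at P10 (1.24, adjusted p = 0.0487). Prdm8, a zinc finger factor, held 19 and 19 reads at P4 and 3 and 14 at P10 (-0.30, adjusted p = 0.559), so its P4 level was among the higher ones of the list. Rax and Samd7 had no promoter peak.

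Cone genes did not move as a block. Of 11 promoters, 2 rose and 1 fell, with a median of 1.20, or 0.18 when scaled to reads in peaks, and over gene totals 1 of 12 rose. The list held 1.95 and 2.27 at P4 and 4.65 and 4.12 at P10 per 10000 reads in peaks, and 1 gene supplied most of the P10 reads. Gnb3, the beta subunit of cone transducin, which ON bipolar cells also use (chr6:124839144-124841484), held 21 and 26 reads at P4 and 65 and 187 at P10, or 4.08 and 6.63 RPKM at P4 and 50.1 and 63.0 RPKM at P10 (3.20 ± 0.30, limma, adjusted p = 0.000390, ratio 11.4-fold (8.33 to 15.9)). Opn1sw, the short-wave opsin, held 4 and 1 reads at P4 and 4 and 13 at P10 (2.12, adjusted p = 0.00684). Opn1mw and Gnat2, the M-opsin and the alpha subunit of cone transducin, held 1 and 1 reads at P4 and 0 and 1 at P10 and 1 and 3 reads at P4 and 0 and 4 at P10, too few to compare. Slc24a2, the cone exchanger, held 8 and 6 reads at P4 and 0 and 0 at P10 and was called lower (adjusted p = 0.00834), at least 1.10-fold when P10 is set to 3 reads per library.

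Some genes of the photoreceptor cilium rose on the deposited scale. Of 21 cilium promoters 6 rose (28.6%) and 0 fell, against 11.3% of all genes and 28.04% of protein-coding promoter peaks with at least 20 reads, and the list had a median of 20 reads. When scaled to reads in peaks 1 rose and 0 fell. The median was 1.21 (scaled 0.40), and 12 of 25 gene totals rose. Bbs7, a subunit of the BBSome that carries cargo through the cilium, held 7 and 5 reads at P4 and 14 and 35 at P10 (2.65 ± 0.27, limma, adjusted p = 0.000478, ratio 8.69-fold (4.55 to 17.9)). Another subunit, Bbs4, held 2 and 3 reads at P4 and 5 and 11 at P10 and passed narrowly (1.79, adjusted p = 0.00899). Mak, a kinase that limits the length of the connecting cilium, held 13 and 7 reads at P4 and 15 and 39 at P10 (2.13, adjusted p = 0.00185), and Rpgrip1, which anchors RPGR there, 5 and 4 reads at P4 and 8 and 19 at P10 (2.10, adjusted p = 0.00283). Mkks, a chaperonin of the BBSome, held most P4 reads of the list, with 25 and 12 reads at P4 and 9 and 32 at P10, and did not pass (1.05, adjusted p = 0.0354).

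Of 19 promoters of ribbon and synaptic vesicle genes, 11 rose (57.9%, with a median of 32 reads) and 0 fell (3 and 0 when scaled to reads in peaks), with a median of 1.81 (0.57 when scaled), and the list held 5.32 and 5.18 at P4 and 10.4 and 8.35 at P10 per 10000 reads in peaks. Cplx3, the complexin of retinal ribbon synapses (chr9:57603966-57607001), held 17 and 16 reads at P4 and 46 and 93 at P10, a change of 2.80 ± 0.29 (limma, adjusted p = 0.000491, ratio 8.96-fold (6.09 to 13.5)). Cabp4, a calcium sensor of the photoreceptor terminal, held 6 and 7 reads at P4 and 18 and 32 at P10 (2.53, adjusted p = 0.000934), and Ctbp2, whose locus encodes the ribbon protein RIBEYE, 3 and 5 reads at P4 and 6 and 21 at P10 (2.03, adjusted p = 0.00368). In all 3 both P10 libraries exceeded both P4 libraries, as at every peak called higher. Vesicle genes used across neurons rose too, with 3 and 3 reads at P4 and 6 and 17 at P10 for Vamp2 (2.09, adjusted p = 0.00292) and 3 and 5 reads at P4 and 10 and 14 at P10 for Snap25 (2.25, adjusted p = 0.00231), which are the v-SNARE and a t-SNARE of release. Cacna2d4, a channel subunit of the terminal, and Syt1, the calcium sensor of release, already had many reads at P4, with 43 and 43 reads at P4 and 32 and 140 at P10 and 52 and 26 reads at P4 and 37 and 104 at P10. Both were called higher (1.75 and 1.84), and both signs turned under quantile normalization, to -0.49 and -0.26. Pclo, a scaffold of the ribbon, held 14 and 12 reads at P4 and 2 and 15 at P10 and a change of 0.00 (adjusted p = 1.000).

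Genes of glycolysis and lactate handling rose at 7 of 21 promoters and fell at 0 (1 and 1 when scaled to reads in peaks). That share, 33.3%, compares with 11.3% of all genes and, since the list had a median of 23 reads, with 28.04% of protein-coding promoter peaks with at least 20 reads. The list had a median change of 1.37 (0.60 when scaled), and 12 of 23 gene totals rose. The list held 2.56 and 2.84 at P4 and 4.50 and 4.62 at P10 per 10000 reads in peaks, a smaller gap than for rod genes but again with no overlap. Ldha, the lactate dehydrogenase subunit that favours lactate (chr7:46844959-46847151), held 5 and 8 reads at P4 and 8 and 38 at P10, or 1.04 and 2.18 RPKM at P4 and 6.59 and 13.7 RPKM at P10. The change was 2.05 ± 0.42 (limma, adjusted p = 0.00506) with a ratio of 7.53-fold (3.999 to 15.2), and P10 replicate 2 carried most of the reads. Ldhb, the subunit that favours pyruvate, held 10 and 9 reads at P4 and 1 and 6 at P10 (-0.52, adjusted p = 0.364), so these paralogous subunits differed in sign, a contrast that was not tested. Aldoa, an aldolase, held 6 and 1 reads at P4 and 5 and 22 at P10 and lay at the threshold (1.80, adjusted p = 0.00991), and its brain-type paralog Aldoc held 0 and 2 reads at P4 and 4 and 9 at P10 (2.48, adjusted p = 0.00240). When scaled, Aldoa was 1.16 and was not called (adjusted p = 0.0687).

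Among the later steps Eno1, an enolase (chr4:150236450-150237761), had most reads, 14 and 7 reads at P4 and 17 and 52 at P10 (2.50 ± 0.29, limma, adjusted p = 0.000686, ratio 6.99-fold (4.24 to 12)). Some transport genes rose, with 5 and 6 reads at P4 and 7 and 20 at P10 for the glucose transporter Slc2a1 (1.96, adjusted p = 0.00275) and 5 and 5 reads at P4 and 11 and 23 at P10 for the lactate transporter Slc16a1 (2.24, adjusted p = 0.00169). The transporter genes Slc2a3 and Slc16a3 also had a promoter peak and were not called. Bsg, which escorts lactate transporters to the membrane, held 5 and 2 reads at P4 and 3 and 13 at P10 (1.76, adjusted p = 0.00669). Pkm, pyruvate kinase, missed the threshold at its promoter with 4 and 7 reads at P4 and 4 and 22 at P10 (1.61, adjusted p = 0.0158), as did Hk2, the hexokinase of photoreceptors, with 2 and 3 reads at P4 and 3 and 6 at P10 (adjusted p = 0.0119), Gapdh with 6 and 3 reads at P4 and 5 and 16 at P10 (adjusted p = 0.0170) and Pfkp with 13 and 10 reads at P4 and 8 and 27 at P10 (adjusted p = 0.0147). Summed over all their peaks, Pkm, Hk2 and Gapdh were called, at 2.05, 1.25 and 1.42. Oxidative phosphorylation genes gave 3 rises and 0 falls among 18 promoters (0 and 0 when scaled), with a median of 0.36, below that of all genes. The list held 2.06 and 1.76 at P4 and 1.5 and 1.62 at P10 per 10000 reads in peaks, and in RPM (reads scaled to the effective library size) it held 33.6 and 31.0 at P4 and 54.2 and 84.4 at P10. Sdhb, a subunit of complex II, held 6 and 3 reads at P4 and 5 and 15 at P10 (1.82, adjusted p = 0.00343), while Cycs, cytochrome c, held 8 and 6 reads at P4 and 1 and 10 at P10 (0.12, adjusted p = 0.884).

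**Figure D4:**
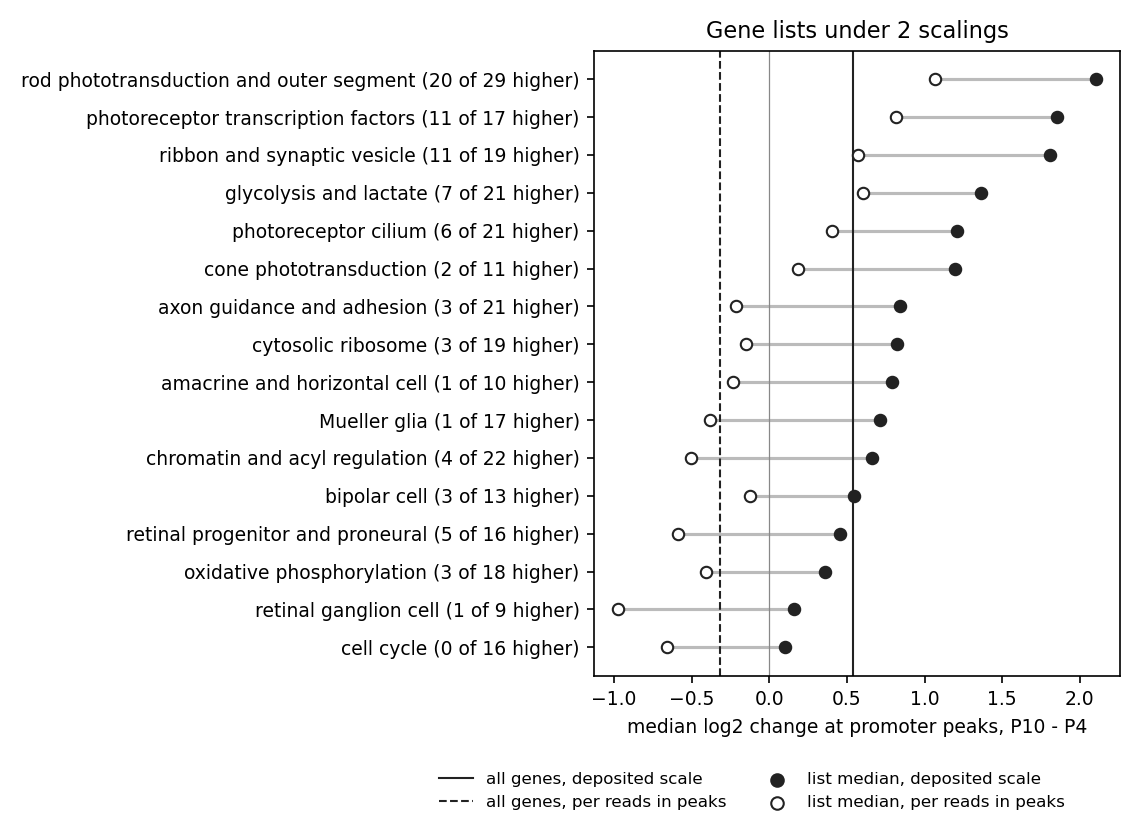
Points give the median log2 change from P4 to P10 over the promoter peaks of each gene list, filled on the deposited scale and open when each library is scaled to its reads in peaks, and vertical lines give the same medians over all 9956 genes. The 6 lists at the top, from rod phototransduction to cone phototransduction, have medians above 0 on both scales, and the other 10 turn negative on the second.

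Among markers of inner retinal neurons and Mueller glia, the shares of promoters that rose on the deposited scale lay on both sides of the 11.3% of all genes. They were 23.1% for bipolar, 10% for amacrine and horizontal, 11.1% for ganglion cell and 5.88% for Mueller glia lists, all of them short. Bipolar promoters gave 3 rises of 13 (median 0.54), amacrine and horizontal promoters 1 of 10 (0.79), ganglion cell promoters 1 of 9 (0.16) and Mueller glia promoters 1 of 17 (0.71), with 0 falls in each. When scaled to reads in peaks all 4 medians were negative, and falls were called in each list, 1 bipolar, 2 amacrine and horizontal, 3 ganglion cell and 2 Mueller glia, against 1, 1, 0 and 0 rises. Ganglion cell promoters held 1.84 and 1.56 at P4 and 1.20 and 1.18 at P10 per 10000 reads in peaks and Mueller glia promoters 2.73 and 2.64 at P4 and 2.30 and 2.12 at P10, lower at P10 without overlap, but in RPM both were higher at P10 without overlap, with 29.99 and 27.4 at P4 and 43.3 and 61.5 at P10 for ganglion cell promoters and 44.5 and 46.5 at P4 and 83.0 and 110.4 at P10 for Mueller glia promoters. Among the members that rose, Lrit3, a scaffold protein of ON bipolar cell signalling, held 1 and 2 reads at P4 and 9 and 16 at P10 (2.85, limma, adjusted p = 0.000666), Slc6a9, the glycine transporter of amacrine cells, 5 and 5 reads at P4 and 8 and 35 at P10 (2.26, adjusted p = 0.00252), and Opn4, melanopsin, 3 and 3 reads at P4 and 5 and 14 at P10 (2.13, adjusted p = 0.00179). Car2, a carbonic anhydrase of glia and some neurons, held 19 and 10 reads at P4 and 14 and 27 at P10 (1.52, adjusted p = 0.00423) and -0.01 under quantile normalization. Gad2, which makes the transmitter GABA, and Slc32a1, which loads it into vesicles, had negative values that did not pass at the promoter, with 18 and 8 reads at P4 and 1 and 2 at P10 for Gad2 (-1.25, adjusted p = 0.0724) and 3 and 1 reads at P4 and 0 and 0 at P10 for Slc32a1 (-1.52, adjusted p = 0.0273). Pou4f1, a ganglion cell factor, held 7 and 3 reads at P4 and 0 and 1 at P10 (-1.57, adjusted p = 0.0380), and Klf7, with the most reads of its list, 29 and 24 reads at P4 and 11 and 24 at P10 (0.45, adjusted p = 0.258).

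Progenitor and cell cycle genes showed no common loss on the deposited scale. Of 16 progenitor and proneural promoters 5 rose (31.25%, against 11.3% of all genes) and 0 fell, or 1 and 1 when scaled to reads in peaks (median 0.45, scaled -0.59). The list held 4.12 and 3.42 at P4 and 4.60 and 3.36 at P10 per 10000 reads in peaks, which overlapped. The members that rose were Btg2, an antiproliferative gene, with 6 and 8 reads at P4 and 21 and 52 at P10 (2.84 ± 0.31, limma, adjusted p = 0.000555), Six3, an eye field factor, with 2 and 3 reads at P4 and 11 and 13 at P10 (2.90, adjusted p = 0.00129), Insm1, a zinc finger factor of newborn neurons, with 45 and 24 reads at P4 and 30 and 81 at P10 (1.59, adjusted p = 0.00391), Hes5 with 5 and 2 reads at P4 and 5 and 17 at P10 (2.02) and Otx2, given above. Otx2 is a photoreceptor and bipolar factor as well, so it is counted in 3 lists. Neurog2, the proneural factor, held 12 and 8 reads at P4 and 0 and 2 at P10 at its promoter (-1.66, adjusted p = 0.0306), and over all its peaks it fell (-1.81, adjusted p = 0.00488). Over the gene totals of the list 9 of 24 rose (37.5%, against 20% of all genes) and 1 fell. Sox4 held 23 and 22 reads at P4 and 6 and 14 at P10 (-0.08).

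On the deposited scale none of 16 cell cycle promoters was called in either direction by limma, and none by voom on the 4 libraries, although 3 were higher and 1 lower at an unadjusted p under 0.05. When scaled to reads in peaks 0 rose and 1 fell, and the median turned from 0.10 to -0.66. The list had few reads, 1.14 and 1.52 at P4 and 0.800 and 0.893 at P10 per 10000 reads in peaks, lower at P10 without overlap, but in RPM it was higher at P10 without overlap, with 18.6 and 26.9 at P4 and 28.9 and 46.5 at P10. Over gene totals 3 of 20 rose and 0 fell. Mki67 held 1 and 1 reads at P4 and 0 and 1 at P10 and Mcm5, a subunit of the replicative helicase, 2 and 3 reads at P4 and 0 and 0 at P10. The members with most reads were inhibitors of division, Cdkn1c with 7 and 6 reads at P4 and 6 and 14 at P10 (1.22, adjusted p = 0.0269) and Cdkn1b with 7 and 8 reads at P4 and 3 and 12 at P10 (0.70, adjusted p = 0.174). The direction of this list thus depended on the scale.

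Markers of cells outside the neural retina were scarce. Retinal pigment epithelium genes had a promoter peak in 4 of 12 cases and held 1.003 and 0.542 at P4 and 0.250 and 0.257 at P10 per 10000 reads in peaks. Vessel and pericyte genes had one in 5 of 12 and held 0.474 and 0.576 at P4 and 0.1 and 0.106 at P10, and lens and astrocyte genes in 4 of 10, with 0.529 and 0.576 at P4 and 0.1 and 0.121 at P10. These 3 lists lay lower at P10 per reads in peaks, but in RPM the pigment epithelium list overlapped between the ages, with 16.4 and 9.55 at P4 and 9.03 and 13.4 at P10. Of the microglia and blood genes C1qa alone of 12 had one, with 5 and 4 reads at P4 and 3 and 4 at P10 (0.58, not called). The defining markers Rpe65, Pecam1, Aif1 and Gfap had no promoter peak. The pigment epithelium gene Best1 (3 and 2 reads at P4 and 0 and 0 at P10) and the endothelial factor Erg (3 and 2 reads at P4 and 0 and 0 at P10) were called lower by limma but not by voom. The part of such cells in the changes of other genes was not tested.

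**Figure D5:**
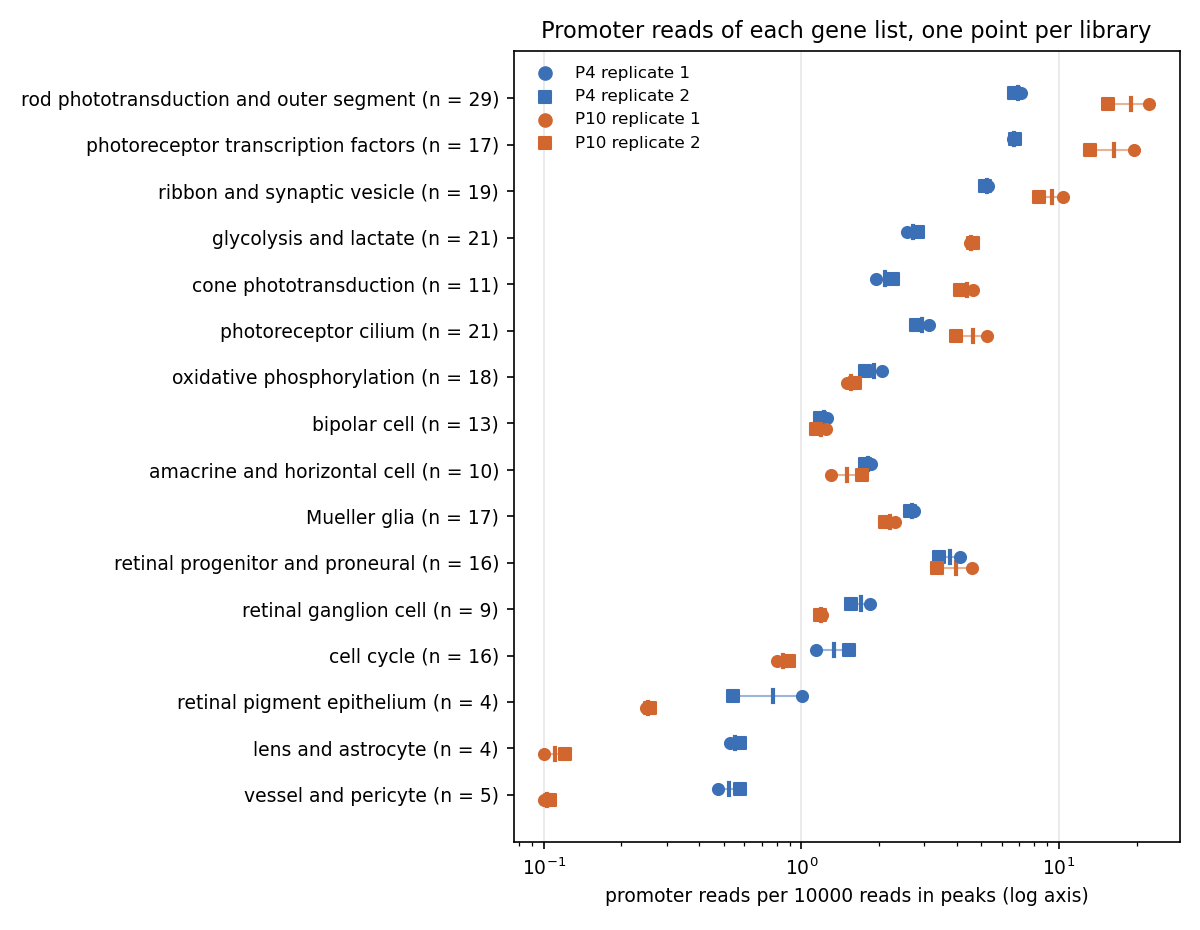
Each point is 1 library and gives the reads at the promoter peaks of a gene list per 10000 reads in peaks, on a log axis, with P4 in blue, P10 in orange, circles for replicate 1, squares for replicate 2 and a tick at the mean of each age. Rod genes went from 7.13 and 6.70 to 22.5 and 15.5, whereas pigment epithelium, lens and astrocyte, and vessel genes, with few peaks each, lie lower at P10.

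The steepest promoter rises included genes outside these lists. Of 907 promoters that met the rule for naming (at least 20 reads, an adjusted p under 0.01 and both P10 libraries above both P4 libraries), the 12 with the largest rise included Epo, 1700001K19Rik, Susd3, Gnb5, Tdrd7, Tepp, Rd3l, Fam53b, Glt28d2, Mybphl and Unc119. Each of these 11 stayed positive when scaled to reads in peaks. The peak annotated to Epo (chr5:137532983-137533945) held 4 and 0 reads at P4 and 19 and 39 at P10 (4.35 ± 0.48, limma, adjusted p = 0.000576), but it contains the RefSeq start of Gnb2, a transducin-type beta subunit, and lies 47167 bases from that of Epo. Gnb5, the beta subunit that pairs with RGS9 to end the light response, held 1 and 1 reads at P4 and 12 and 25 at P10 (3.58, adjusted p = 0.000381, ratio 39.4-fold (10.2 to 337)). 1700001K19Rik held 4 and 4 reads at P4 and 46 and 62 at P10 (3.98), Susd3 4 and 4 reads at P4 and 22 and 57 at P10 (3.79) and Tepp 11 and 9 reads at P4 and 40 and 110 at P10 (3.54). Rd3l, a paralog of the guanylate cyclase regulator Rd3, held 3 and 6 reads at P4 and 20 and 66 at P10 (3.36, adjusted p = 0.000653), and Mybphl, a myosin-binding protein homolog, 13 and 12 reads at P4 and 40 and 111 at P10 (3.28). The rule for naming required both P10 libraries to lie above both P4 libraries in all of these.

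Over whole genes, summing all non-distal peaks, 2770 of 13835 protein-coding genes rose (20%) and 238 fell (1.72%), and without P4 replicate 1 the counts were 1174 and 97, without P4 replicate 2 they were 1399 and 79, without P10 replicate 1 they were 3929 and 280, and without P10 replicate 2 they were 2932 and 932. Scaled to reads in peaks they were 641 and 1539. The 8 largest rises were 1700001K19Rik, Usp37, Guca1b, Epo, Degs2, Mtor, Rd3l and Unc119. Of these, 1700001K19Rik, Usp37, Mtor, Rd3l and Unc119 had 1 peak each, so nothing was summed for them. For 1700001K19Rik, Rd3l and Unc119 that peak is the promoter peak given above. The total annotated to Epo held 21 and 45 reads at P10, of which 19 and 39 lay in the peak with the RefSeq start of Gnb2. Usp37, a deubiquitinase, held 10 and 7 reads at P4 and 41 and 89 at P10 (3.67 ± 0.25, limma, adjusted p = 0.000244). Mtor, the kinase that couples nutrients to growth, held 4 and 6 reads at P4 and 29 and 87 at P10 (3.44, adjusted p = 0.000244, ratio 24.7-fold (12.9 to 52.8)), and Degs2, a sphingolipid desaturase, 5 and 14 reads at P4 and 31 and 137 at P10 (3.46, adjusted p = 0.000527). All 3 had fewer than 20 P4 reads in all.

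Outside promoters, 5881 peaks met the same rule for a rise. The 5 largest lay in Cit, Hpcal1, Ccdc162, Fgd3 and Nsmce2. In intron 45 of 46 of Cit, citron kinase (chr5:116003545-116003895), there were 0 and 0 reads at P4 and 7 and 17 at P10, at least 8.51-fold more when P4 is set to 3 reads per library. In intron 1 of 3 of Hpcal1, a neuronal calcium sensor (chr12:17718787-17719603), there were 1 and 2 reads at P4 and 28 and 72 at P10 (5.09 ± 0.31, limma, adjusted p = 0.000380, ratio 70.9-fold (23.6 to 349.6)). The peak in a 5' UTR of Ccdc162 (chr10:41585659-41586344) held 0 and 0 reads at P4 and 9 and 25 at P10, at least 12.1-fold more, and that in the 3' UTR of Fgd3 (chr13:49261874-49262351) held 0 and 1 reads at P4 and 7 and 31 at P10 (4.66). In intron 4 of 6 of Nsmce2 there were 1 and 0 reads at P4 and 7 and 21 at P10 (4.52). These 5 were nearly empty at P4.

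The peaks with the highest P10 levels, chosen after their values were seen, were different ones. The highest lay in intron 1 of 3 of Gm12802 (chr4:107128005-107129181), with 20.1 and 23.8 RPKM at P4 and 215 and 214 RPKM at P10 from 52 and 47 reads at P4 and 140 and 320 at P10 (3.24, limma, adjusted p = 0.000380). A distal peak assigned to Gm9586 held 41 and 60 reads at P4 and 138 and 425 at P10 (3.38). All 50 of the peaks with the highest P10 level were called higher, 22 in introns, 19 distal, 3 in exons, 1 in a 3' UTR and 5 at promoters, with a median change of 3.03 (1.73 when scaled to reads in peaks). A high P10 level favours a rise, so this count is a description. Of these 50, 16 were also among the 50 highest at P4, so both ages shared part of their strongest sites.

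On the deposited scale falls supported by reads were few. When scaled to reads in peaks, 1164 promoter peaks of any read number were called lower and 613 higher. Among the lower ones was Gm31333, with 49 and 35 reads at P4 and 3 and 22 at P10 (-2.29, limma, adjusted p = 0.00150). At promoters 2 genes met the rule on the deposited scale. Slc27a6, a fatty acid transporter, held 10 and 11 reads at P4 and 0 and 0 at P10 (-2.69 ± 0.50, limma, adjusted p = 0.00355), at least 1.65-fold lower when P10 is set to 3 reads per library. The peak annotated to Diaph3, a formin (chr14:86748593-86749429), held 13 and 21 reads at P4 and 1 and 2 at P10 (-1.91, adjusted p = 0.00808, 5.33-fold lower (1.68 to 27.1)), lies 391795 bases from the nearest RefSeq start of that gene, and did not pass voom (adjusted p = 0.0312). Of 28 non-promoter peaks that met the rule the largest fall was a distal peak near Gm29041 (chr1:43358170-43358863), with 29 and 16 reads at P4 and 0 and 1 at P10 (-3.55, adjusted p = 0.00106, 21.2-fold lower (3.61 to 854)). A distal peak near Gm11232 (chr4:71764775-71765739) held 34 and 27 reads at P4 and 0 and 4 at P10 (-3.07), and a peak in intron 6 of 29 of Cadps2, a regulator of dense-core vesicle release, 14 and 10 reads at P4 and 0 and 0 at P10 (-3.19). Gm10280 and Gm24602 named the other 2, both distal, with 10 and 10 reads at P4 and 0 and 0 at P10 and 20 and 16 reads at P4 and 0 and 1 at P10. Each of these 5 peaks had 0 to 4 reads in each P10 library.

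Over whole genes, on the deposited scale, 8 falls met the rule with at least 40 reads: Csmd3, Mecom, Galnt3, Itih5, Kcnip4, Ankrd55, Grm3 and Veph1. Mecom, a zinc finger factor, held 25 and 23 reads at P4 and 0 and 2 at P10 (-1.41 ± 0.27, limma, adjusted p = 0.00391, 11.3-fold lower (2.96 to 95.8)). Csmd3, a large adhesion-type membrane protein, held 20 and 28 reads at P4 and 0 and 3 at P10 (-1.52, adjusted p = 0.00989), and Kcnip4, a potassium channel-interacting protein, 31 and 25 reads at P4 and 1 and 4 at P10 (-1.31, adjusted p = 0.00727). Grm3, a metabotropic glutamate receptor, held 36 and 22 reads at P4 and 2 and 6 at P10 (-1.23, adjusted p = 0.00987). The falls were smaller on the log2 scale than the rises, but the pseudocount of 1 limits a fall from a low level. Mean P4 levels were 1.98 RPKM for Mecom and 2.57 RPKM for Csmd3, so the sizes of falls and rises cannot be compared on this scale. Most adjusted p were near the threshold, and Galnt3 (adjusted p = 0.0211), Ankrd55 (0.0334), Grm3 (0.0131) and Veph1 (0.0121) did not pass voom on the 4 libraries.

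Of the promoters that the study used to illustrate the time course, Crx, Aldoa, Ldha, Kdm5b, Bbs4 and Vamp2 were called higher between P4 and P10 on the deposited scale. When scaled to reads in peaks, Crx (limma, adjusted p = 0.0951), Aldoa (0.0687) and Ldha (0.0362) lost that call, and Kdm5b kept it (0.0065). For Bbs4 and Vamp2 the scaled value is not given here. Over the alternative settings as a whole, Bbs4 lost its call in 14 and kept it in 4, and Vamp2 lost its call in 6 and kept it in 12. The study chose them on these samples, so their direction is not independent evidence. Kdm5b, a histone H3K4 demethylase, held 4 and 2 reads at P4 and 5 and 17 at P10 (2.34 ± 0.35, limma, adjusted p = 0.00150). Gsk3b, a kinase of Wnt signalling, held 19 and 20 reads at P4 and 15 and 30 at P10 (1.16, adjusted p = 0.0139) and changed sign to -0.03 when scaled to reads in peaks. Tbp and Taco1 held 1 and 1 reads at P4 and 0 and 1 at P10 and 3 and 0 reads at P4 and 1 and 0 at P10, and no fold is given for so few reads. Among other chromatin genes Kdm6b, an H3K27 demethylase, held 3 and 0 reads at P4 and 7 and 14 at P10 (3.23, adjusted p = 0.00136) and Dnmt3a, a DNA methyltransferase, 3 and 4 reads at P4 and 8 and 23 at P10 (2.06, adjusted p = 0.00230, in a peak 5621 bases from the nearest RefSeq start). Hdac2, a histone deacetylase with the most promoter reads of the list, held 50 and 39 reads at P4 and 20 and 53 at P10 (0.72, adjusted p = 0.0705). Its sign turned to -0.58 when scaled to reads in peaks and to -1.37 under quantile normalization, where it was called lower (adjusted p = 0.00606). In this list 4 of 22 promoters of the chromatin list rose and 0 fell (1 and 0 when scaled), with a median of 0.66, or -0.51 when scaled.

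The letters TAATCC were more frequent in peaks called higher. In 300-base windows at the peak centres, read on both strands, they were present in 14.7% of the 12320 peaks called higher, 8.81% of the 7944 called lower and 11.5% of all 108253. The next shares are for peaks with at least 20 reads over the 4 libraries, a filter that a peak can pass through its P10 reads, so that the sets are not independent of the change. There the letters were present in 15.1% of those called higher and 9.28% of the rest. At promoters these shares were 10.6 and 5.57%, and outside promoters 16.4 and 11.1%. By base composition, windows under 40% GC gave 20.4 against 18.7%, those of 40 to 45% gave 21.9 against 16.6%, those of 45 to 50% gave 20.4 against 12.8%, those of 50 to 55% gave 15.7 against 10.98%, those of 55 to 60% gave 9.92 against 7.01%, and those of 60% or more gave 4.33 against 3.12%. In RefSeq promoter windows, matched for 7111 of the 9956 genes, TAATCC occurred in 79 of 769 that rose (10.3%), in 5 of 42 that fell (11.9%), in 5.93% of all 7111 and in 7.06% of the 32851 windows of the table. GGGCGG, the box bound by SP factors, occurred in 12.7% of the peaks called higher, 3.097% of those called lower and 11.8% of all. With at least 20 reads the order turned, with 15.3% of the higher peaks and 24.1% of the rest, and 40.8 against 56.5% at promoters. Outside promoters the shares were close, at 7.75 and 7.84%, as they were at 45 to 50% GC (3.59 and 3.87%) and at 50 to 55% (7.98 and 8.24%), whereas windows of 55 to 60% GC gave 16.3 against 18.5% and those of 60% or more gave 63.4 against 68.6%. In RefSeq windows GGGCGG occurred at 70.4% of promoters that rose, 38.1% of those that fell (16 of 42), 68.2% of all 7111 and 35.7% of the 32851 windows of the table. Other letter strings differed less in peaks with at least 20 reads, TGCTGA of MAF-type factors with 25.4 against 22.5%, AGGTCA of nuclear receptors with 22.7 against 19.8% and CAGATG of E-boxes with 23.9 against 23.3%. Peaks near each other are not independent, so these shares are given without a test. The Crx and Unc119 promoters printed above carry the TAATCC letters, whereas the Ldha window carries 3 GGGCGG boxes.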

How the data were processed

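H3K18La was profiled by CUT&Tag in mouse retina at P4 (n = 2), P10 (n = 2) and P28 (n = 3). Per the study's methods and processing notes, the authors aligned reads to GRCm38, called peaks with MACS (q beyond 1e-06 in at least 2 replicates), removed blacklisted regions, merged peaks over the ages, annotated them with ChIPseeker 1.34.1, normalized libraries on windows of 10000 bases with csaw, and compared ages with edgeR 3.40.2. The deposited table gives RPKM per peak and library. Its columns of the authors' comparisons (fold changes and p-values) were not used.

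Multiplied by peak width, RPKM values came in whole steps of 1 amount per library, within 0.01 of a read for 100% of values, which gave reads and effective library sizes. Peaks were tested with limma 3.58.1 (R 4.3.3) on log2(RPKM + 1) over all 7 libraries, with a variance trend, for P10 minus P4, with Benjamini-Hochberg adjustment and a threshold of 0.01. Gene totals sum the reads of all non-distal peaks of a protein-coding gene with at least 10 reads over the 7 libraries. Ratios divide pooled reads by effective sizes, with exact 95% intervals, and a group with 0 reads was set to 3 reads per library. Per-library measures used an exact permutation test. The fits were tested on simulated data. Intervals cover counting error only, since PCR copies are not independent molecules.

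Named genes are the 12 largest promoter changes each way with at least 20 reads and no overlap of the ages, 8 for gene totals with at least 40 reads, 5 for other peaks, the examples of the study, and the 3 best-covered members of each list. Some items that this rule would name are not reported here. Members named beyond these were chosen after their values were seen. The comparison (its members, taken by age) and the gene lists were chosen with earlier results of these data known. A peak annotated to a gene need not hold its RefSeq start: of 304 promoter peaks of named or listed genes 264 did, and 13 lay over 5000 bases away. Alternatives covered scaling, filters, pseudocounts, tools and each P4 and P10 library left out. Python 3.11.15 with pandas 2.3.3 and scipy 1.17.1 made the tables.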

Additional observations from a re-analysis of the deposited data

How the results depend on the processing

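Against 20264 peaks, 2516 promoter peaks and 3008 gene totals called in either direction, the counts fell furthest with limma on the P4 and P10 libraries alone, to 0, 0 and 0. Voom on the same 4 libraries called 16085, 2813 and 3580. Within batch 1 (without P28 replicate 1) 12986 peaks and 1533 promoters were called. Library weights gave 5439, 939 and 1774, quantile normalization 7287, 824 and 1520, and thinning to the smallest library 3524, 358 and 248. With the 4 libraries and at least 20 reads, an alternative chosen after seeing the data, as was voom on the 4 libraries, 6389 peaks and 1280 promoters were called. At least 10 reads gave 11649 peaks (11260 higher and 389 lower), and a threshold of 0.05 gave 37899 peaks and 5044 promoters. Leaving out each P4 and P10 library in turn, and no P28 library but replicate 1, gave 5463 to 20992 peaks, 658 to 3049 promoters and 1271 to 4209 gene totals. A replicate block gave 16747, 2078 and 1736. Same-numbered libraries share only a number (r = 0.039 over peaks and 0.047 over gene totals). Scaled to reads in peaks, promoters split into 613 higher and 1164 lower.

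The median change over all peaks, 0.25 as a difference of library medians, was 0.90 with at least 10 reads, -0.68 when scaled to reads in peaks, and 0.04 to 0.46 with a library left out. The share of peak reads in promoters changed by 0.241 points, by -3.50 with at least 10 reads, and by -1.04 to 1.52 with a library left out. The gain in the share of reads in peaks ranged from 19.1 to 35.1 points.

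Of the 52 values of the largest changes and the study's examples, 46 lost their call with the 4 libraries alone, 36 when thinned, 20 without either P4 library, 17 with library weights and 5 when scaled to reads in peaks. The sign changed for 3, of which none was called. Among other members named in the text, Thrb, Cacna2d4, Syt1, Car2, Plxna2, Nrxn3 and Ntm were called and turned negative under quantile normalization. Gsk3b was -0.031 when scaled and -0.22 under quantile normalization. Tbp was 0.43 with voom, 0.40 with voom on the 4 libraries, 0.14 under quantile normalization, 0.84 when thinned and -0.72 to 0.26 with a library left out (0.26 without P10 replicate 1). Taco1 was -0.25 when scaled, -0.13 when median centred and -0.56 to 0.79 with a library left out (-0.44 without P4 replicate 2, -0.56 without P10 replicate 1). The causes of these shifts were not tested. Falls on the deposited scale rested on few reads: 99.6% of the peaks called lower had no read at P10, and their median was 4 reads over the 4 libraries.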

Other observations

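Promoters of axon guidance and ribosomal genes rose at shares near that of all genes on the deposited scale. Of 21 axon guidance and adhesion promoters 3 rose (14.3%, with a median of 35 reads) and 0 fell (1 and 1 when scaled to reads in peaks), against rises in 11.3% of all genes and 28.04% of protein-coding promoter peaks with at least 20 reads, with a median change of 0.84, or -0.21 when scaled to reads in peaks. Dscaml1, an adhesion molecule that spaces retinal cells, held 12 and 15 reads at P4 and 26 and 71 at P10 (2.50 ± 0.30, limma, adjusted p = 0.000721, ratio 7.64-fold (4.95 to 12.2)), and Plxna2, a semaphorin receptor, 29 and 14 reads at P4 and 16 and 46 at P10 (1.46, adjusted p = 0.00705), which was -0.06 under quantile normalization. Unc5c, a netrin receptor, held 33 and 20 reads at P4 and 11 and 55 at P10 (1.07, adjusted p = 0.0432). Of 19 ribosomal protein promoters 3 rose (15.8%) and 0 fell (1 and 0 when scaled), with a median of 0.82, or -0.15 when scaled. The list held 1.95 and 1.90 at P4 and 2.80 and 2.62 at P10 per 10000 reads in peaks, higher at P10 without overlap. Rpl10a had the most reads of the list, with 8 and 16 reads at P4 and 25 and 74 at P10 (2.77, adjusted p = 0.00100), and Rps6 held 10 and 7 reads at P4 and 4 and 19 at P10 (1.08, adjusted p = 0.0502).

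The 50 peaks with the highest P4 level, chosen after their values were seen, were called higher at P10 in 33 cases and lower in 2 on the deposited scale. Their median change was 1.80, or 0.50 when scaled to reads in peaks. On that second scale Gm12802 was called higher (1.92, limma, adjusted p = 0.000966), but Gm49754 was called lower (-1.30, adjusted p = 0.00259). Under quantile normalization most of the 50 changes were negative, and the largest rise, near Gm9586, was not called (0.81, adjusted p = 0.0366). The highest P4 level was in intron 1 of 7 of Ntm, a neural adhesion molecule, with 107 and 100 reads at P4 and 77 and 251 at P10 (1.59, limma, adjusted p = 0.00292). Its change was 0.26 when scaled to reads in peaks (adjusted p = 0.207) and -0.83 under quantile normalization, a called fall (adjusted p = 0.00791). A peak in intron 2 of 3 of Nrxn3, a presynaptic adhesion molecule, held 59 and 49 reads at P4 and 60 and 146 at P10 (1.94, limma, adjusted p = 0.00162) and turned to -0.49 under quantile normalization. Both lower ones were the distal peaks near Gm29041 and Gm11232 described above. The strongest sites of P4 were therefore mostly in introns (26) or distal (18), with 4 at promoters.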
